A study of Mus musculus with 23 samples.

Results

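Cancer-associated fibroblasts (CAFs) sorted from tumors of the LL2 model were compared with CAFs of the EO771, Pan02 and MC38 models. The members are the 2 LL2 CAF libraries, of 8 CAF libraries and 23 libraries in all, and they were recognized by their labels, with no measured value used. LL/2 is a Lewis lung carcinoma line, EO771.LMB a breast, Pan02 a pancreatic and MC38 a colon cancer line, all of them murine. Each group was untreated and differed from the others in the engrafted line, of which 500000 cells were placed in the flank of adult female C57BL/6 mice. At endpoint, leukocytes were depleted with CD45 beads, FAP+ cells were sorted from the CD45- fraction, and their poly(A) RNA was sequenced without strand information. The 2 libraries of a model came from separate rounds of sorting, the number of tumors in a round is not given in the sources used here, and p-values measure the spread between such rounds. A model stands for 1 cell line, so that LL2 can be told apart from the 3 lines compared here but not from lung cancers as a class. As a second readout, 3 whole LL2 tumors were set against whole tumors of the same 3 models, in a fit over 15 tumors that also holds B16. The titles of the 3 Pan02 tumors read Pan01 while their cell line label reads Pan02, and the latter was followed.

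CAFs are the mesenchymal cells of a tumor. They lay down and remodel the collagen matrix, secrete growth factors and chemokines, and have been divided into myofibroblastic, inflammatory and antigen-presenting states. Wnt signaling starts when secreted Wnt proteins, lipidated by Porcupine (*Porcn*) and released with the help of Wntless (*Wls*), bind Frizzled receptors and LRP co-receptors, and it ends in transcription through TCF/LEF factors. Secreted inhibitors of the Dickkopf and sFRP families act in between. Interferons act through receptors at the cell surface and raise antiviral genes, guanylate-binding proteins and the machinery that loads peptides onto MHC class I.

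In RPKM, reads per length of transcript scaled to the reads of a library, the sorted cells carried the marks of fibroblasts in all 8 libraries. *Col1a1*, the main chain of type I collagen, had 2260.0 and 1595 RPKM in LL2 CAFs, 3773 and 3362 in EO771, 1535 and 795 in Pan02, and 2771 and 467 in MC38. *Fap*, the gene of the protein used in the sort, had 9.24 and 9.91 RPKM in LL2 CAFs, 6.46 and 7.16 in EO771, 3.28 and 1.89 in Pan02, and 11.4 and 4.29 in MC38. LL2 values lay within the range of the others for both (*Fap* log2 difference 0.8, adjusted p = 0.08, *Col1a1* log2 difference 0.2, adjusted p = 0.83). The receptor gene *Pdgfra* had 40.2 and 39.3 RPKM in LL2 CAFs against 14.3 to 31.4 in the 6 others. Its log2 difference was 0.77 without LL2 library 1, and that of the receptor gene *Pdgfrb* was -0.84 without LL2 library 2. Of the 20 fibroblast genes tested, 3 were higher and 0 lower by the test described below, and *Pdgfra* and *Pdgfrb* were not called. The summed level of the list was 14039 and 12496 RPKM in LL2 CAFs and 3894 to 17048 in the 6 others, and the lowest of these sums was that of MC38 library 2. *Ptprc*, which encodes CD45, had 0.017 and 0.021 RPKM in LL2 CAFs against 0.007 to 0.947 in the 6 others, and the T cell gene *Cd3e* reached 0.248 RPKM in LL2 library 1 and 0 in library 2. Macrophage genes summed to 12.9 and 14.5 RPKM in LL2 CAFs and 15.6 to 262 in the 6 others, and all leukocyte genes to 23.2 and 24.8 RPKM in LL2 CAFs and 17 to 105 in the 6 others. Endothelial genes summed to 79.7 and 102 RPKM in LL2 CAFs and 15.2 to 123 in the 6 others, and pericyte genes to 146 and 141 RPKM in LL2 CAFs and 41 to 443 in the 6 others. Epithelial genes stood between, with 213 and 216 RPKM in LL2 CAFs and 4.22 to 1177 in the 6 others, the highest in Pan02 and the lowest in MC38. Sequencing depth, which could be read up to a common factor from the steps in which RPKM values are spaced, was alike in the LL2 libraries (1.00 and 1.01) and lower in the others (0.409 to 0.915). The Euclidean distance between the LL2 libraries was 27.5 on log2(RPKM + 1), against 91.1 to their nearest neighbor, EO771 library 1, and 23.8, 42.0 and 63.9 within EO771, Pan02 and MC38.

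Among 13598 genes that reached 1 RPKM in 2 or more libraries, 529 (3.89%) were higher and 698 (5.13%) lower in LL2 CAFs than in the mean of the 3 other models. A gene was counted at an adjusted p under 0.05 by limma and a difference of at least 1 on the log2(RPKM + 1) scale, which understates the change of weakly expressed genes. Below, higher and lower refer to these calls, and a difference is a log2 difference on this scale unless a unit is given. The median over all tested genes was -0.03. Both LL2 libraries lay above all 6 others for 1276 genes (9.38%) and below them for 1059 (7.79%). Each count of list genes below is to be read beside these shares of all genes, since some counts are close to them. The test uses the spread between sorting rounds of a model. When the 6 other libraries were taken as 1 group, so that differences among EO771, Pan02 and MC38 entered the error, 41 genes were higher and 12 lower, all of them among the 529 and 698. Most calls below therefore set LL2 apart from the mean of these 3 models and say nothing about a wider population of tumors. Where a call did not stand without a library, the libraries are given after the gene with the adjusted p that their removal left, the highest where there are several. In bulk RNA, fewer cells of a kind and less RNA per cell cannot be told apart.

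*Dkk2*, *Mmp12* and *Itgb7* had the 3 largest differences among genes with at least 10 RPKM and no overlap between groups. *Dkk2* (NM_020265, chromosome 3 from 132085292 to 132180304 of mm10) encodes a secreted Dickkopf protein that binds the Wnt co-receptors LRP5 and LRP6. It had 133 and 156 RPKM in LL2 CAFs, 2.83 and 3.52 in EO771, 1.03 and 0.771 in Pan02, and 2.66 and 0.788 in MC38. The LL2 mean was 145 ± 16.3 RPKM (SD, n = 2), no other library reached 4 RPKM, and the groups did not overlap (log2 difference 5.74, standard error 0.25, adjusted p = 3.1e-05). *Itgb7* (NM_013566, chromosome 15 from 102215995 to 102231935), the β7 integrin chain best known from lymphocytes that home to the gut, had 55.9 and 62.7 RPKM in LL2 CAFs, 2.58 and 2.4 in EO771, 2.84 and 4.92 in Pan02, and 2.42 and 1.87 in MC38 (log2 difference 4.01, standard error 0.18, adjusted p = 3.1e-05). Both *Dkk2* and *Itgb7* kept their calls under every alternative that was run, the one with the 6 others as 1 group among them (5.74, adjusted p = 0.0017 for *Dkk2*, 4.01, adjusted p = 0.0017 for *Itgb7*). The partners of the β7 chain were near the lower end of detection, with *Itga4* at 0.155 and 0.071 RPKM in LL2 CAFs against 0.046 to 0.359 in the 6 others and *Itgae* at 0.168 and 0.046 RPKM in LL2 CAFs against 0.073 to 0.368 in the 6 others, and *Madcam1*, which encodes a ligand of the α4β7 integrin, was at 0.529 and 0.087 RPKM in LL2 CAFs against 0 to 0.195 in the 6 others.

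*Mmp12* (NM_008605, chromosome 9 from 7347374 to 7360461), a metalloproteinase that cleaves elastin and is a typical product of macrophages, had 34.4 and 43 RPKM in LL2 CAFs, 4.87 and 5.03 in EO771, 0.052 and 0.031 in Pan02, and 0.126 and 0.015 in MC38. EO771 CAFs took an intermediate level, and Pan02 and MC38 CAFs were close to 0 (log2 difference 4.39, standard error 0.12, adjusted p = 2e-05). With the 6 others as 1 group the call was lost (4.39, adjusted p = 0.069). Of the macrophage markers, *Adgre1* had 0.042 and 0.152 RPKM in LL2 CAFs against 0.107 to 2.75 in the 6 others, *C1qa* 0.431 and 1.06 RPKM in LL2 CAFs against 0.2 to 58.4 in the 6 others and *Lyz2* 0.673 and 2.42 RPKM in LL2 CAFs against 1.23 to 49 in the 6 others, and none of 13 tested macrophage genes was higher in LL2 CAFs, 5 being lower. Their sums were 12.9 and 14.5 RPKM in LL2 CAFs and 15.6 to 262 in the 6 others, the highest in EO771 CAFs, and the part of macrophages in the *Mmp12* values was not tested. By correlation of log2 values over the 8 libraries, the genes most like *Dkk2* were *Gli2*, *Arhgap6*, *Pde3b*, *Nefm* and *Prdm6* (r from 0.994 to 0.997), those most like *Mmp12* were *Inpp5d*, *Acpp*, *Frzb*, *Sncb* and *Abcd2* (0.985 to 0.989), and those most like *Itgb7* were *Prtg*, *Pskh1*, *Igf2bp1*, *Nptxr* and *Uggt1* (0.989 to 0.995). With 8 points that fall in 4 pairs, such values mainly say that a gene is high in LL2 and low elsewhere. Leaving out 1 library took away the call of *Lyz2* (LL2 1, 0.078).

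**Figure D1:**
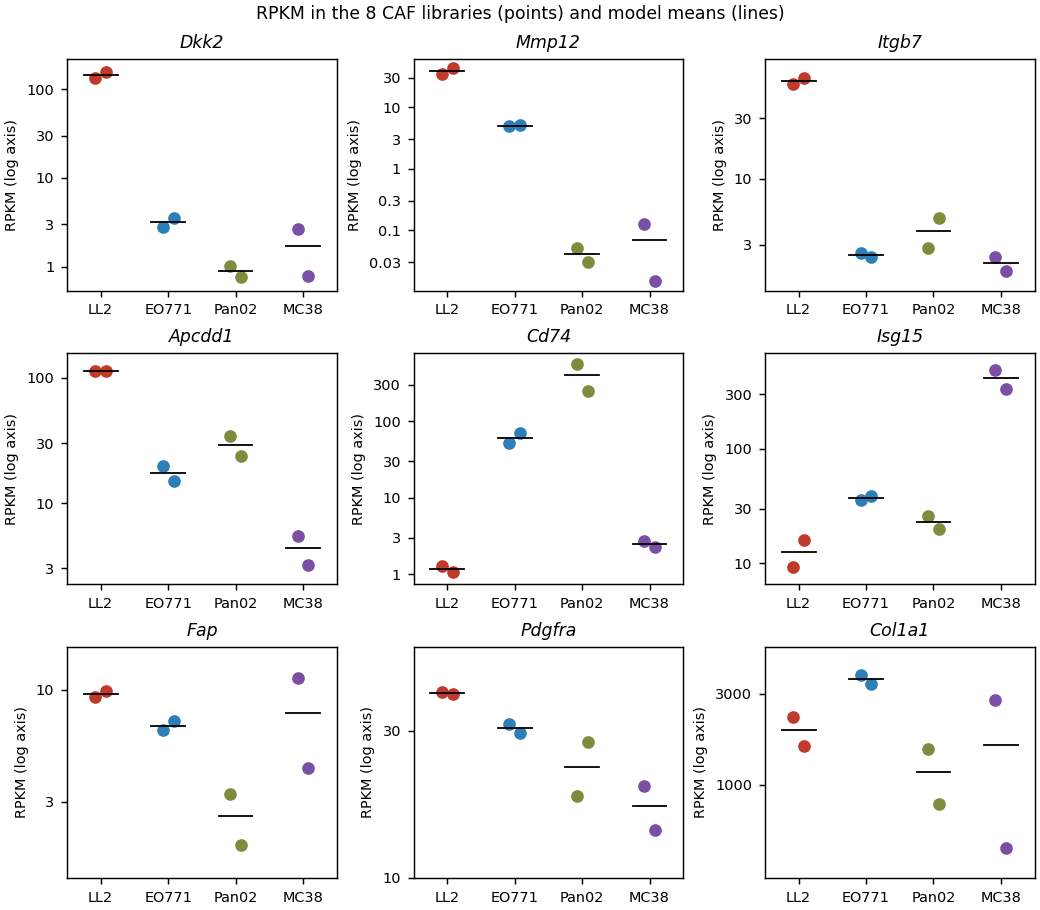
RPKM (log axis, a separate range in each panel) of 9 genes in the 8 CAF libraries, 2 points per model with a line at the model mean. LL2 points stand alone at the top for Dkk2, Mmp12, Itgb7 and Apcdd1 and at the bottom for Cd74 and Isg15, while they fall inside the spread of the other models for Fap and Col1a1.

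The other 9 of the 12 leading genes were *H19*, *Mir675*, *Hmga2*, *Rhox2d*, *Stc1*, *Peg10*, *Rhox2g*, *Slc38a4* and *Nptx1*. *H19*, an imprinted long noncoding RNA of fetal tissue, had 261 and 304 RPKM in LL2 CAFs, 7.66 and 9.52 in EO771, 11.2 and 5.46 in Pan02, and 121 and 39.9 in MC38 (log2 difference 3.96, standard error 0.4, adjusted p = 0.00048), so that MC38 CAFs were intermediate. *Mir675* lies within an exon of *H19* and shares all of its bases with it, and its values (109 and 133 RPKM in LL2 CAFs against 1.68 to 42.4 in the 6 others) cannot be taken as a level of the microRNA. *Hmga2*, a chromatin protein of embryonic and transformed cells, had 57.2 and 71.6 RPKM in LL2 CAFs, 18.5 and 17.5 in EO771, 0.033 and 0.068 in Pan02, and 2.96 and 4.93 in MC38 (log2 difference 3.82, standard error 0.17, adjusted p = 3.2e-05). *Stc1*, the secreted glycoprotein stanniocalcin, had 18.4 and 22.7 RPKM in LL2 CAFs against 0.09 to 2.12 in the 6 others (log2 difference 3.51, adjusted p = 0.00012), and *Nptx1*, a secreted pentraxin of neurons, had 45.5 and 50.7 RPKM in LL2 CAFs against 0 to 22.8 in the 6 others (log2 difference 3.28, adjusted p = 0.00025). The imprinted gene *Peg10* had 17.3 and 19.1 RPKM in LL2 CAFs against 0.159 to 2.75 in the 6 others (log2 difference 3.44, adjusted p = 4e-05), and *Slc38a4*, an amino acid transporter gene that is imprinted as well, had 12 and 12.7 RPKM in LL2 CAFs against 0.208 to 0.655 in the 6 others (log2 difference 3.31, adjusted p = 2.4e-05). *Rhox2d* (31.9 and 37.8 RPKM in LL2 CAFs against 0 to 17 in the 6 others) and *Rhox2g* (20.4 and 24 RPKM in LL2 CAFs against 0 to 8.39 in the 6 others) are X-linked homeobox genes of the germ line. They belong to a cluster of near-identical copies, between which reads could have been divided.

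At the other end, the 12 leading genes were *Padi4*, *Cd74*, *AI662270*, *H2-Eb1*, *Lgals7*, *H2-Aa*, *Wfdc2*, *Fam83a*, *Syt8*, *5730559C18Rik*, *Fmod* and *Msln*. *Padi4*, an enzyme that turns arginine of histones into citrulline, had 0.017 and 0.083 RPKM in LL2 CAFs, 42.6 and 44 in EO771, 4.44 and 27.4 in Pan02, and 18.3 and 25.9 in MC38 (log2 difference -4.47, standard error 0.52, adjusted p = 0.00087). *Lgals7*, a galectin of stratified epithelia, had 1.46 and 0.889 RPKM in LL2 CAFs, 119 and 129 in EO771, 2.2 and 3.78 in Pan02, and 53.6 and 34.5 in MC38 (log2 difference -3.69, standard error 0.22, adjusted p = 5.6e-05). *Wfdc2*, a secreted protein of epithelia, had 3.68 and 6.95 RPKM in LL2 CAFs against 31.4 to 230.5 in the 6 others (log2 difference -3.59, adjusted p = 4.2e-05), and *Msln*, the mesothelial surface protein mesothelin, had 1.79 and 2.43 RPKM in LL2 CAFs against 3.41 to 142 in the 6 others (log2 difference -3.19, adjusted p = 2.4e-05). The models that carried these genes differed. *Lgals7*, *Wfdc2* and *Fam83a* were highest in EO771 CAFs, *Cd74*, *H2-Aa*, *H2-Eb1*, *Syt8* and *Msln* in Pan02 CAFs, and *AI662270* in MC38 CAFs. That LL2 CAFs were lowest in each case follows from the choice of genes without overlap between groups. Calls lost on the removal of 1 library were those of *Fmod* (LL2 1, LL2 2, up to 0.077).

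Among the listed genes of the Wnt pathway, a secreted inhibitor had the largest rise and ligands the largest falls. Of the 10 secreted Wnt inhibitors tested, 3 were higher and 1 lower (median 0.08, against -0.03 over all genes). Beside *Dkk2*, the higher ones were *Apcdd1*, which binds Wnt proteins and LRP5 at the membrane, with 113 and 114 RPKM in LL2 CAFs, 19.7 and 15 in EO771, 34.1 and 23.7 in Pan02, and 5.5 and 3.21 in MC38 (log2 difference 3.02, standard error 0.21, adjusted p = 9.7e-05), and the decoy receptor *Frzb* with 2.62 and 2.61 RPKM in LL2 CAFs against 0.019 to 0.677 in the 6 others (log2 difference 1.55, adjusted p = 9.7e-05). *Notum*, which removes the lipid from Wnt proteins, had 1.41 and 1.23 RPKM in LL2 CAFs, 0.241 and 0.187 in EO771, 128 and 126 in Pan02, and 0.83 and 0.457 in MC38. It was lower in LL2 CAFs than in the mean (log2 difference -1.45, adjusted p = 0.00023), but with Pan02 taken out of the reference it was higher (0.72, adjusted p = 0.005), and 38.1% of its exon bases overlap another gene. Of the 11 Wnt ligands tested, 3 were lower, namely *Wnt10a* (-3.02), *Wnt6* (-2.72) and *Wnt10b* (-2.27). *Wnt10a* had 0.475 and 0.571 RPKM in LL2 CAFs, 2.25 and 2.49 in EO771, 65.3 and 79.8 in Pan02, and 6.29 and 7.15 in MC38 (log2 difference -3.02, standard error 0.12, adjusted p = 2.5e-05), and *Wnt10b* had 2.27 and 2.23 RPKM in LL2 CAFs, 13.2 and 12.3 in EO771, 32.2 and 17.2 in Pan02, and 7.53 and 14 in MC38 (log2 difference -2.27, standard error 0.27, adjusted p = 0.00091). For all 3 ligands both LL2 libraries lay below the 6 others. The median of the ligand list was -1.42 for LL2 minus EO771, -0.62 for LL2 minus Pan02 and 0.48 for LL2 minus MC38. In whole tumors, *Dkk2* and *Apcdd1* were restricted to LL2 by the rule given further below. *Wnt10a*, *Wnt6*, *Porcn* and *Notum* were restricted to Pan02 tumors and *Wnt10b* to EO771 tumors. From which cells these Wnt transcripts came was not tested. *Porcn*, needed for the release of every Wnt protein, had 1.97 and 1.82 RPKM in LL2 CAFs against 6.2 to 21 in the 6 others (log2 difference -1.98, adjusted p = 0.00016), whereas *Wls* had 119.8 and 127 RPKM in LL2 CAFs against 38.1 to 132 in the 6 others (log2 difference 1.1, adjusted p = 0.00085), a rise that left it within the range of the others.

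Of the 31 Wnt receptors and transducers tested, 2 were higher and 4 lower. Beside *Wls* and *Porcn*, they were the repressive TCF factor *Tcf7l1* (34 and 35.6 RPKM in LL2 CAFs against 0.88 to 44.7 in the 6 others), and in the other direction *Tcf7* (-1.93), *Lgr5* (-1.92) and *Fzd2* (-1.16), which encode a TCF factor, an R-spondin receptor and a Frizzled receptor. Of the 18 Wnt target genes tested, 2 were higher and 5 lower (median -0.48, against -0.03 over all genes). The higher ones were *Apcdd1* and *Myc*, and *Tcf7*, *Lgr5*, *Notum* and *Wisp1* were among the lower ones. *Tcf7*, a target and an effector at once, had 1.93 and 1.73 RPKM in LL2 CAFs, 9.53 and 8.75 in EO771, 16.6 and 17.4 in Pan02, and 4.85 and 7.18 in MC38 (log2 difference -1.93, standard error 0.14, adjusted p = 0.00013), with LL2 CAFs below every other library. *Myc* had 578 and 248 RPKM in LL2 CAFs, 253 and 244 in EO771, 99.1 and 70.8 in Pan02, and 36.5 and 38.5 in MC38 (log2 difference 2.02, adjusted p = 0.0022), and LL2 library 1 was 2-fold or more above library 2. *Axin2*, the target most often used as a readout, was at 2.56 and 1.97 RPKM in LL2 CAFs, 3.33 and 2.55 in EO771, 1.08 and 1.22 in Pan02, and 0.615 and 0.572 in MC38 and did not reach the difference of 1 (0.45, adjusted p = 0.035). The call did not stand without 1 library for *Fzd2* (LL2 2, 0.062) and *Wisp1* (LL2 1, LL2 2, up to 0.14).

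Genes of the interferon response were low in LL2 CAFs. Of the 30 interferon response genes tested, 25 were lower, all 30 had a negative difference, and the median was -1.53, against -0.03 over all genes. For 14 of them both LL2 libraries lay below the 6 others (7.79% of all genes did). *Isg15*, a ubiquitin-like protein, had 9.34 and 15.9 RPKM in LL2 CAFs, 35.5 and 38.6 in EO771, 26 and 19.8 in Pan02, and 492 and 331 in MC38 (log2 difference -2.43, standard error 0.23, adjusted p = 0.00034). *Ifit3*, which binds viral RNA complexes, had 2.59 and 3.85 RPKM in LL2 CAFs, 4.94 and 6.45 in EO771, 33.3 and 19 in Pan02, and 65.5 and 43.2 in MC38 (log2 difference -2.34, standard error 0.25, adjusted p = 0.00062). *Gbp3*, a guanylate-binding protein with close paralogs, had 3.96 and 2.99 RPKM in LL2 CAFs, 7.08 and 6.74 in EO771, 47.2 and 25.8 in Pan02, and 31.4 and 38.6 in MC38 (log2 difference -2.28, standard error 0.22, adjusted p = 0.00037), and *Rsad2*, which makes an antiviral nucleotide, had 1.28 and 1.17 RPKM in LL2 CAFs, 3.65 and 3.44 in EO771, 1.94 and 2.24 in Pan02, and 49.3 and 64.2 in MC38 (log2 difference -2.06, standard error 0.13, adjusted p = 7e-05). The distance to each model was unequal. The list median was -0.52 for LL2 minus EO771, -0.87 for LL2 minus Pan02 and -3.0 for LL2 minus MC38, and with MC38 taken out of the reference 12 genes were lower. Antiviral genes such as *Rsad2* and *Isg15* stood out in MC38 CAFs, while *Gbp3* was high in Pan02 and MC38 CAFs alike. Of the 13 leukocyte genes tested, 6 were lower and 1 higher in LL2 CAFs. The sums of leukocyte genes were 23.2 and 24.8 RPKM in LL2 CAFs and lowest in MC38 CAFs (17 and 19.8 RPKM). The part of leukocytes in the interferon values was not tested.

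The promoters of these genes were then searched for a sequence. The interferon-stimulated response element (ISRE) was searched, on both strands, as GAAA, any 2 bases and again GAAA, in the 250 bases before the start of each gene (RefSeq, GRCm38), where the start lay within 100 bases of that of the transcript measured. Such a promoter was found for 9820 of the 13598 tested genes, and 277 of these (2.82%) held at least 1 match. Of the 22 interferon genes with a promoter, 15 (68.2%) held one. These were 15 of the 18 lower and 0 of the 4 uncalled genes with a promoter. The lower genes *Irf7*, *Oasl2* and *Ifi44* held none. The shares were 8.9% of the 472 promoters of all lower genes and 3.09% of the 356 promoters of all higher genes. The list was made of known interferon response genes, so its share depends on that choice and is no independent evidence. The share of all lower genes includes the lower genes of the list. These are counts of letters and not of bound sites. The promoters of *Isg15* (chr4:156200819-156201068, minus strand), *Ifit3* (chr19:34583279-34583528, plus strand) and *Rsad2* (chr12:26456453-26456702, minus strand) are shown because they are those of 3 of the 4 interferon genes with the largest falls. Capitals mark the matches, of which *Isg15* has 3 that overlap, the first beginning 78 bases before the start, *Ifit3* has 2 on the other strand, beginning 156 and 122 bases before it, and *Rsad2* has 1, also on the other strand, at 120 bases.
Isg15: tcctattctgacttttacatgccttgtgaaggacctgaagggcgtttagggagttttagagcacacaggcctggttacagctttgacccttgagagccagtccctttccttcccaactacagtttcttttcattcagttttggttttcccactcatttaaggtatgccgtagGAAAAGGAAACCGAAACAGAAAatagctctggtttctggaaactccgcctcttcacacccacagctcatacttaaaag
Ifit3: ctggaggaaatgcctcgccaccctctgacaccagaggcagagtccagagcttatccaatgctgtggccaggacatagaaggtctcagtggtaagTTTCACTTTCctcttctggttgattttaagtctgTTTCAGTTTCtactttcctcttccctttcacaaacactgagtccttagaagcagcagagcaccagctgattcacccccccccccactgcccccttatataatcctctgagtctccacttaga
Rsad2: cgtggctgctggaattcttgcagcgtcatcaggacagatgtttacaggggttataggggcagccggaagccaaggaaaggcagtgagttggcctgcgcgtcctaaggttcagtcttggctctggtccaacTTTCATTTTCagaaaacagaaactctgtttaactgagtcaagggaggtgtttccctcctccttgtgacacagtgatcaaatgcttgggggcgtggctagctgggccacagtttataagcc

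Genes of MHC class I presentation went the same way. Of the 15 genes of MHC class I presentation tested, 7 were lower (median -0.9), where 5.13% of all genes were lower. For 8 of the 15, LL2 CAFs lay below every other library, as they did for 7.79% of all genes. The immunoproteasome subunit *Psmb9* had 8.05 and 8.53 RPKM in LL2 CAFs, 21.3 and 26.1 in EO771, 40.5 and 34.4 in Pan02, and 158 and 123 in MC38 (log2 difference -2.46, standard error 0.14, adjusted p = 4.9e-05), and *Psmb8* (-2.2), *Tap1* (-2.06) and *H2-K1* (-1.84), a second subunit, a peptide transporter and a class I heavy chain with close paralogs, followed. MHC class II genes and their invariant chain, which define the antigen-presenting CAF state together with mesothelial genes, fell furthest. Of the 12 markers of antigen-presenting CAFs tested, 2 were higher and 8 lower (median -2.62). *Cd74*, the invariant chain, had 1.27 and 1.06 RPKM in LL2 CAFs, 51.2 and 69.1 in EO771, 556 and 246 in Pan02, and 2.71 and 2.31 in MC38 (log2 difference -4.31, standard error 0.28, adjusted p = 8.3e-05). MC38 CAFs were nearly as low as LL2 CAFs, and the high values were those of Pan02 and EO771. *H2-Aa* (0.582 and 0.412 RPKM in LL2 CAFs against 1.17 to 173 in the 6 others) and *H2-Eb1* (0.426 and 0.527 RPKM in LL2 CAFs against 1.59 to 176 in the 6 others) ran in parallel. Dendritic cells, B cells and macrophages express these 3 genes as well. The sums of macrophage genes were 207 and 262 RPKM in EO771, 58.6 and 78.1 in Pan02, 18.7 and 15.6 in MC38 and 12.9 and 14.5 in LL2 CAFs, with 5 of 13 genes lower in LL2, and their part in the class II values was not tested. The higher genes of this list were *Krt18* and *Saa3*. The call of *Saa3* rested on Pan02, where it is low, and its difference was -0.27, adjusted p = 0.63 without Pan02 in the reference. Removal of 1 library left no call for *Saa3* (EO771 1, LL2 1, LL2 2, up to 0.19).

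**Figure D2:**
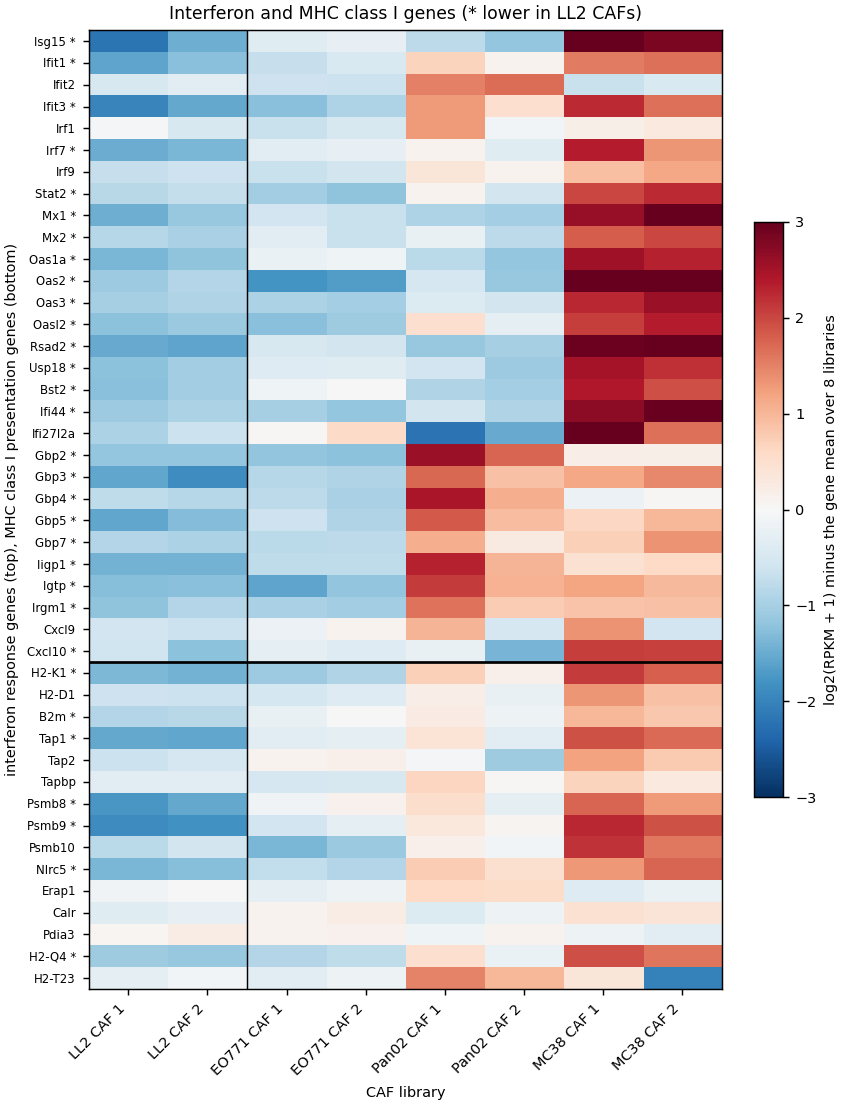
Log2(RPKM + 1) minus the gene's mean over the 8 CAF libraries for 29 interferon response genes (above the line) and 15 MHC class I presentation genes (below it), with 1 column per library and asterisks at the genes called lower in LL2 CAFs, 24 and 7 of those shown. The LL2 columns are blue in nearly every row, the EO771 columns are mostly blue but paler, and red marks MC38 for antiviral genes and Pan02 together with MC38 for guanylate-binding proteins and GTPases.

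In the extracellular matrix, changes ran both ways. Of the 49 matrix glycoproteins and proteoglycans tested, 7 were higher and 7 lower (median 0.02). *Vcan*, the large hyaluronan-binding proteoglycan versican, had 57.4 and 62.8 RPKM in LL2 CAFs, 17.2 and 18.1 in EO771, 4.8 and 2.67 in Pan02, and 9.03 and 2.76 in MC38 (log2 difference 2.92, standard error 0.34, adjusted p = 0.00089), and the small proteoglycan *Lum*, lumican, had 257 and 281 RPKM in LL2 CAFs, 72.4 and 73.8 in EO771, 80.6 and 84.4 in Pan02, and 47 and 16 in MC38 (log2 difference 2.27, standard error 0.33, adjusted p = 0.0023). *Nid1*, the basement membrane protein nidogen, and *Tgfbi*, an adhesion protein, were higher too, by 2.4 and 1.95, although *Tgfbi* was higher still in EO771 CAFs (207 and 209.8 RPKM). *Fmod*, fibromodulin, which like lumican binds collagen fibrils, had 0.992 and 0.52 RPKM in LL2 CAFs, 5.46 and 7.17 in EO771, 33.9 and 14.1 in Pan02, and 61 and 10.4 in MC38 (log2 difference -3.24, standard error 0.59, adjusted p = 0.0061). *Thbs4* (-2.96), *Thbs1* (-1.94) and *Ltbp2* (-1.89), which encode thrombospondins and a TGF-β binding protein, were lower with it. Of the 32 collagen chains tested, 1 was higher and 4 lower. *Col3a1*, the chain of type III collagen, rose (3799 and 3443 RPKM in LL2 CAFs against 486 to 2827 in the 6 others, log2 difference 1.53, adjusted p = 0.036), and *Col8a2* (-2.22), *Col28a1* (-1.64), *Col8a1* (-1.35) and *Col11a1* (-1.31) were the lower ones. Of the 25 genes of collagen processing tested, 4 were higher. Lysyl hydroxylase 2, *Plod2*, had 88.4 and 101 RPKM in LL2 CAFs, 20.4 and 24.3 in EO771, 19.8 and 15 in Pan02, and 28.5 and 39.3 in MC38 (log2 difference 1.96, standard error 0.16, adjusted p = 0.00021), the procollagen protease *Adamts14* had 40.1 and 41.2 RPKM in LL2 CAFs against 5.76 to 21.9 in the 6 others (log2 difference 1.5, adjusted p = 0.0001), and *Plod1* (1.12) and *P3h3* (1.09) completed the list. Of the 7 laminin genes tested, *Lamb1* was higher (199 and 199 RPKM in LL2 CAFs against 23.9 to 83.7 in the 6 others, log2 difference 1.82, adjusted p = 0.00081). ADAMTS proteases held 2 higher genes of 13 tested, *Adamts14* and *Adamts10*, and 1 lower, *Adamts16*. No call was made among 14 protease inhibitors. Without 1 library no call was made for *Adamts16* (LL2 1, LL2 2, up to 0.14), *Col11a1* (LL2 1, LL2 2, up to 0.14), *Col3a1* (EO771 1, EO771 2, Pan02 2, LL2 1, LL2 2, up to 0.2), *Col8a1* (EO771 1, EO771 2, Pan02 1, Pan02 2, LL2 1, LL2 2, up to 0.23), *Col8a2* (LL2 1, LL2 2, up to 0.12), *Ltbp2* (LL2 1, LL2 2, up to 0.13), *Nid1* (LL2 1, LL2 2, up to 0.075), *P3h3* (EO771 1, EO771 2, LL2 1, LL2 2, up to 0.16), *Plod1* (LL2 1, LL2 2, up to 0.077), *Tgfbi* (LL2 1, LL2 2, up to 0.12), *Thbs1* (EO771 1, EO771 2, LL2 1, LL2 2, up to 0.17) and *Thbs4* (LL2 1, LL2 2, up to 0.15).

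Of the 14 matrix metalloproteinases tested, 3 were higher and 1 lower. Beside *Mmp12* these were the stromelysin *Mmp3*, with 221 and 264 RPKM in LL2 CAFs, 111 and 134 in EO771, 28.8 and 12.7 in Pan02, and 77.5 and 17.3 in MC38 (log2 difference 2.42, standard error 0.52, adjusted p = 0.012), and *Mmp19* (35.1 and 40.4 RPKM in LL2 CAFs against 10.1 to 32.1 in the 6 others, log2 difference 1.01, adjusted p = 0.012), and in the other direction the gelatinase *Mmp9* (4.17 and 3.85 RPKM in LL2 CAFs against 1.18 to 23.4 in the 6 others, log2 difference -1.1, adjusted p = 0.0036). The collagenase *Mmp13* varied within the other models (1.61 and 1.54 RPKM in LL2 CAFs, 54.1 and 23.8 in EO771, 2.63 and 0.934 in Pan02, and 8.65 and 0.527 in MC38) and was not called (log2 difference -1.49, adjusted p = 0.12). Its relatives *Mmp1a* and *Mmp1b* were too low to be tested, with 0.725 and 1.34 RPKM in LL2 CAFs against 0 to 0.054 in the 6 others and 0.456 and 0.584 RPKM in LL2 CAFs against 0 to 0.075 in the 6 others. *Mmp12* and *Mmp3* lie near each other on chromosome 9, and their promoters are shown because both hold the AP-1 sequence TGANTCA, in capitals, at nearly the same place, 44 and 46 bases before the start. Among all 9820 promoters, 450 (4.58%) held this sequence on either strand, and among those of the 11 tested metalloproteinases with a promoter, 4 did. Of these 4, 2 were among the 9 metalloproteinases with a promoter that were not called. The share was 5.06% of the promoters of all higher genes and 8.69% of those of all lower genes. A link of the sequence to the rise of the 2 genes was not tested. The windows are chr9:7347124-7347373, plus strand, and chr9:7445572-7445821, plus strand. Leaving out 1 library took away the call of *Mmp19* (LL2 1, LL2 2, up to 0.12), *Mmp3* (LL2 1, LL2 2, up to 0.11) and *Mmp9* (LL2 2, 0.054).
Mmp12: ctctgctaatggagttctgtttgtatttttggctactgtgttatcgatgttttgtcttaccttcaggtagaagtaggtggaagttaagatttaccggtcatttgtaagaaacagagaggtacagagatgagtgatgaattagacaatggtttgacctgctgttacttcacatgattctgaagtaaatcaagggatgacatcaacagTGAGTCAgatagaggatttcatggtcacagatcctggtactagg
Mmp3: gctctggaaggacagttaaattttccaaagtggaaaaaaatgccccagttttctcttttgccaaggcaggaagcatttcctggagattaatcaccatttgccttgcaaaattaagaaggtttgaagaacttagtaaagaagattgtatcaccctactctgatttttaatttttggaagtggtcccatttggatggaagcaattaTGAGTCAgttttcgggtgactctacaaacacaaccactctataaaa

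Lists of the other CAF states were called mostly in 1 direction. Of the 24 markers of inflammatory CAFs tested, 5 were higher and 1 lower (median 0.34), where 3.89% of all genes were higher and 5.13% lower. The list median was -0.55 for LL2 minus EO771, 0.98 for LL2 minus Pan02 and 0.76 for LL2 minus MC38. LL2 CAFs were thus not above EO771 CAFs on this list. The monocyte chemokines *Ccl2* (319 and 277 RPKM in LL2 CAFs, 124 and 159 in EO771, 18.9 and 8.06 in Pan02, and 234 and 267 in MC38, log2 difference 1.93, adjusted p = 0.0021) and *Ccl7* (128 and 119.6 RPKM in LL2 CAFs against 4.65 to 96.2 in the 6 others, log2 difference 1.77, adjusted p = 0.0025), the interleukin-1 receptor *Il1r1* (45 and 47.8 RPKM in LL2 CAFs against 6.09 to 22.8 in the 6 others, log2 difference 1.88, adjusted p = 0.0023), *Cxcl1* and *Saa3* were the higher ones. *Il6* (3.43 and 3.17 RPKM in LL2 CAFs against 1.61 to 16.5 in the 6 others, log2 difference -0.34, adjusted p = 0.52) and *Cxcl12* (64.5 and 54.9 RPKM in LL2 CAFs against 10.5 to 89.7 in the 6 others, log2 difference 0.78, adjusted p = 0.23), which are commonly used to define the state, fell within the range of the others. Of the 22 markers of myofibroblastic CAFs tested, 4 were lower and 0 higher (median -0.23), against the same shares of all genes. The list median was -1.48 for LL2 minus EO771, -0.12 for LL2 minus Pan02 and 0.15 for LL2 minus MC38, so that the distance was mainly to EO771. The lower ones were *Ctgf* (-2.52), *Thbs1* (-1.94), *Actg2* (-1.74) and *Inhba* (-1.14). *Ctgf*, a matricellular growth factor, had 20.6 and 14.1 RPKM in LL2 CAFs, 139.8 and 151 in EO771, 151 and 82.3 in Pan02, and 139.6 and 31.1 in MC38 (log2 difference -2.52, standard error 0.51, adjusted p = 0.009), with LL2 CAFs below every other library. *Acta2*, smooth muscle actin, had 43.6 and 40 RPKM in LL2 CAFs, 157 and 159.6 in EO771, 119 and 89.1 in Pan02, and 229 and 30.3 in MC38 and was not called (log2 difference -1.39, adjusted p = 0.13), the MC38 libraries differing from each other more than LL2 from the mean. *Postn* was at 317 and 249 RPKM in LL2 CAFs against 89 to 801 in the 6 others (log2 difference 0.02, adjusted p = 0.99). Calls lost on the removal of 1 library were those of *Actg2* (EO771 1, EO771 2, Pan02 1, LL2 1, LL2 2, up to 0.2), *Ctgf* (LL2 1, LL2 2, up to 0.1) and *Cxcl1* (LL2 1, 0.076).

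Of the 27 chemokines tested, 4 were higher and 7 lower. The neutrophil chemokines split. *Cxcl1* had 260.4 and 131 RPKM in LL2 CAFs, 169 and 230.2 in EO771, 29.9 and 25.4 in Pan02, and 30.5 and 53.3 in MC38 (log2 difference 1.59, adjusted p = 0.007), whereas *Cxcl2* (10.4 and 3.42 RPKM in LL2 CAFs, 21 and 25.3 in EO771, 151 and 70.3 in Pan02, and 0.562 and 1.1 in MC38) and *Cxcl3* (0.786 and 0.411 RPKM in LL2 CAFs, 1.88 and 2.88 in EO771, 30.6 and 36 in Pan02, and 0.374 and 1.49 in MC38) were lower (*Cxcl2* log2 difference -1.22, adjusted p = 0.049, *Cxcl3* log2 difference -1.91, adjusted p = 0.0012). The high values were those of Pan02 CAFs, and without Pan02 in the reference *Cxcl2* was at 0.1, adjusted p = 0.87. *Pf4* (-2.03), *Ccl5* (-1.29) and *Ccl6* (-1.29) were lower as well, with the highest values in EO771 for *Pf4* and *Ccl6* and in MC38 for *Ccl5*. *Ccl11*, eotaxin, was higher (75.1 and 77.7 RPKM in LL2 CAFs against 5.31 to 86.5 in the 6 others). Of the 14 immunosuppressive factors tested, 2 were higher, *Nos2* (6.54 and 6.99 RPKM in LL2 CAFs against 0.495 to 8.55 in the 6 others, log2 difference 1.18, adjusted p = 0.047) and *Ptgs1* (41.8 and 44 RPKM in LL2 CAFs against 6.13 to 42.4 in the 6 others, log2 difference 1.13, adjusted p = 0.00087). *Ptgs2* (log2 difference 0.19, adjusted p = 0.71), *Arg1* (log2 difference 0.04, adjusted p = 0.95) and *Cd274* (log2 difference -0.38, adjusted p = 0.2) were not called, and *Tgfb1* (38.9 and 42.2 RPKM in LL2 CAFs against 28 to 111 in the 6 others) did not reach the difference of 1 (-0.61, adjusted p = 0.013). Of the 16 prostaglandin genes tested, 2 were higher and 1 lower, *Ptgs1* being one of them. *Ptges*, which makes prostaglandin E2, had 51.5 and 53.1 RPKM in LL2 CAFs, 32.1 and 33.3 in EO771, 3.06 and 1.66 in Pan02, and 30.1 and 26 in MC38 (log2 difference 1.85, standard error 0.16, adjusted p = 0.00025), and the phospholipase *Pla2g2e* was lower (0.262 and 0.207 RPKM in LL2 CAFs against 0.148 to 8.92 in the 6 others, log2 difference -1.31, adjusted p = 0.00086). The call did not stand without 1 library for *Ccl11* (LL2 1, LL2 2, up to 0.074), *Ccl6* (LL2 1, 0.052), *Cxcl2* (EO771 1, EO771 2, Pan02 1, MC38 2, LL2 2, up to 0.41) and *Nos2* (Pan02 1, Pan02 2, LL2 1, LL2 2, up to 0.23).

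Of the 36 growth factors tested, 6 were higher and 4 lower (median 0.22). *Pdgfa*, a ligand of PDGFRα, had 15.5 and 19 RPKM in LL2 CAFs, 105 and 119 in EO771, 49.5 and 72.5 in Pan02, and 105 and 67.1 in MC38 (log2 difference -2.2, standard error 0.21, adjusted p = 0.00036), with LL2 CAFs below every other library, although 26.1% of its exon bases overlap another gene. Its call was kept with the 6 others as 1 group (-2.2, adjusted p = 0.042). *Nrg1* (-1.92), *Mdk* (-1.73) and *Angpt4* (-1.27), an ERBB ligand, midkine and an angiopoietin, were lower too. The lymphangiogenic factor *Vegfd* had 34.7 and 35.3 RPKM in LL2 CAFs against 5.69 to 17.8 in the 6 others (log2 difference 1.68, adjusted p = 0.0052), the EGFR ligand *Areg* 18.4 and 17.6 RPKM in LL2 CAFs against 0.502 to 13.1 in the 6 others (log2 difference 1.64, adjusted p = 0.0016), and *Fgf10* (1.41) and *Ptn* (1.41) were also higher, *Ptn* at a level below that of Pan02 CAFs (141 and 189 RPKM). Of the 14 genes of the IGF axis tested, 4 were higher and 1 lower. *Igfbp4*, a binding protein of the insulin-like growth factors, had 1738 and 1871 RPKM in LL2 CAFs, 309 and 391 in EO771, 147 and 72.1 in Pan02, and 1594 and 887 in MC38 (log2 difference 2.36, standard error 0.32, adjusted p = 0.0016), and *Igf2r*, the receptor that clears IGF2, had 49.8 and 49.6 RPKM in LL2 CAFs, 7.81 and 6.16 in EO771, 12.1 and 12.1 in Pan02, and 16.8 and 12.6 in MC38 (log2 difference 2.11, standard error 0.14, adjusted p = 7.7e-05). *Stc1* and *Irs2* (1.36) were the others, and *Igfbp2* was lower (0.43 and 0.284 RPKM in LL2 CAFs against 1.87 to 5.0 in the 6 others, log2 difference -1.66, adjusted p = 0.0012). Of the 29 genes of BMPs, activins and their antagonists tested, 2 were higher and 6 lower. *Gdf15* (-2.81), *Bmp7* (-2.58), *Id1* (-1.57) and *Fst* (-1.42) were among the lower ones, and *Bmp2* (1.3) and *Inhbb* (1.14) were higher. *Bmp7* had 1.07 and 0.933 RPKM in LL2 CAFs, 41 and 42.1 in EO771, 29 and 39.9 in Pan02, and 0.196 and 0.118 in MC38 (log2 difference -2.58, standard error 0.14, adjusted p = 4.2e-05), so that EO771 and Pan02 CAFs stood against LL2 and MC38 CAFs. In the TGF-β list, 3 of 25 tested genes were higher, *Tgfbr3* (1.97), *Tgfbi* (1.95) and *Smad4* (1.02), and 3 lower, *Ctgf* (-2.52), *Ltbp2* (-1.89) and *Smad6* (-1.07). Removal of 1 library left no call for *Angpt4* (LL2 1, 0.056), *Fst* (EO771 1, EO771 2, Pan02 1, Pan02 2, LL2 1, LL2 2, up to 0.18), *Gdf15* (LL2 2, 0.052), *Id1* (LL2 2, 0.19), *Inhbb* (LL2 1, LL2 2, up to 0.14), *Irs2* (EO771 1, EO771 2, LL2 1, LL2 2, up to 0.28), *Mdk* (EO771 1, EO771 2, Pan02 1, Pan02 2, LL2 1, LL2 2, up to 0.2) and *Vegfd* (LL2 1, LL2 2, up to 0.063).

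Of the 32 transcription factors of fibroblasts tested, 5 were higher and 9 lower. *Hic1*, a repressor that marks quiescent mesenchymal progenitors, had 82.3 and 86 RPKM in LL2 CAFs, 16.5 and 18.6 in EO771, 4.88 and 3.02 in Pan02, and 35.7 and 22.1 in MC38 (log2 difference 2.63, standard error 0.21, adjusted p = 0.00016), *Osr2* had 57 and 65.6 RPKM in LL2 CAFs, 19.5 and 21.1 in EO771, 10.2 and 4.97 in Pan02, and 8.9 and 7.85 in MC38 (log2 difference 2.4, standard error 0.22, adjusted p = 0.0003), and *Prrx1* had 47.3 and 50.7 RPKM in LL2 CAFs against 3.64 to 37.7 in the 6 others (log2 difference 1.93, adjusted p = 0.001). *Twist2* was higher as well (1.34), below the EO771 level, and 46.5% of its exon bases overlap another gene. *Gli1*, a factor and target of Hedgehog signaling, had 1.27 and 1.44 RPKM in LL2 CAFs, 3.08 and 2.96 in EO771, 7.07 and 5.29 in Pan02, and 29 and 40.4 in MC38 (log2 difference -2.09, standard error 0.16, adjusted p = 0.00014), and *Foxd1* (-1.66), *Prrx2* (-1.6) and *Sox9* (-1.57) were lower with it. The related *Gli2* was higher (4.39 and 4.5 RPKM in LL2 CAFs against 0.923 to 1.49 in the 6 others, log2 difference 1.33, adjusted p = 0.00031). Of the 31 Hox genes tested, 7 were higher and 1 lower. *Hoxd9* (13.3 and 17.1 RPKM in LL2 CAFs against 0.147 to 13.2 in the 6 others), *Hoxd3* (2.15 and 3.02 RPKM in LL2 CAFs against 0.01 to 0.782 in the 6 others), *Hoxb2* (8.71 and 8.93 RPKM in LL2 CAFs against 0.843 to 7.1 in the 6 others) and *Hoxa11* (2.93 and 3.39 RPKM in LL2 CAFs against 0 to 3.88 in the 6 others) were among the higher ones, the last with 35% of its exon bases in another gene, and *Hoxc9* (2.47 and 1.81 RPKM in LL2 CAFs against 4.08 to 10.1 in the 6 others, log2 difference -1.33, adjusted p = 0.00041) was the lower one. Of the 30 cell cycle genes tested, 1 was lower, *Rrm2*, and *Mki67* was at 7.89 and 8.91 RPKM in LL2 CAFs against 4.28 to 18.5 in the 6 others (log2 difference -0.14, adjusted p = 0.66). Of the 26 genes of hypoxia and glycolysis tested, 1 was lower, the carbonic anhydrase *Car9* (2.33 and 2.58 RPKM in LL2 CAFs against 1.14 to 43.8 in the 6 others, log2 difference -1.74, adjusted p = 0.00054). Among 22 tested integrin genes, *Itgb7* and *Itgb2* (7.62 and 8.98 RPKM in LL2 CAFs against 1.35 to 7.67 in the 6 others, log2 difference 1.33, adjusted p = 0.047) were higher and *Itgb4* lower (3.04 and 2.58 RPKM in LL2 CAFs against 1.85 to 54.7 in the 6 others, log2 difference -1.58, adjusted p = 0.00011). Without 1 library no call was made for *Hoxb2* (LL2 1, LL2 2, up to 0.12), *Itgb2* (EO771 1, EO771 2, MC38 2, LL2 1, LL2 2, up to 0.24), *Rrm2* (LL2 1, LL2 2, up to 0.11) and *Sox9* (LL2 2, 0.089).

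**Figure D3:**
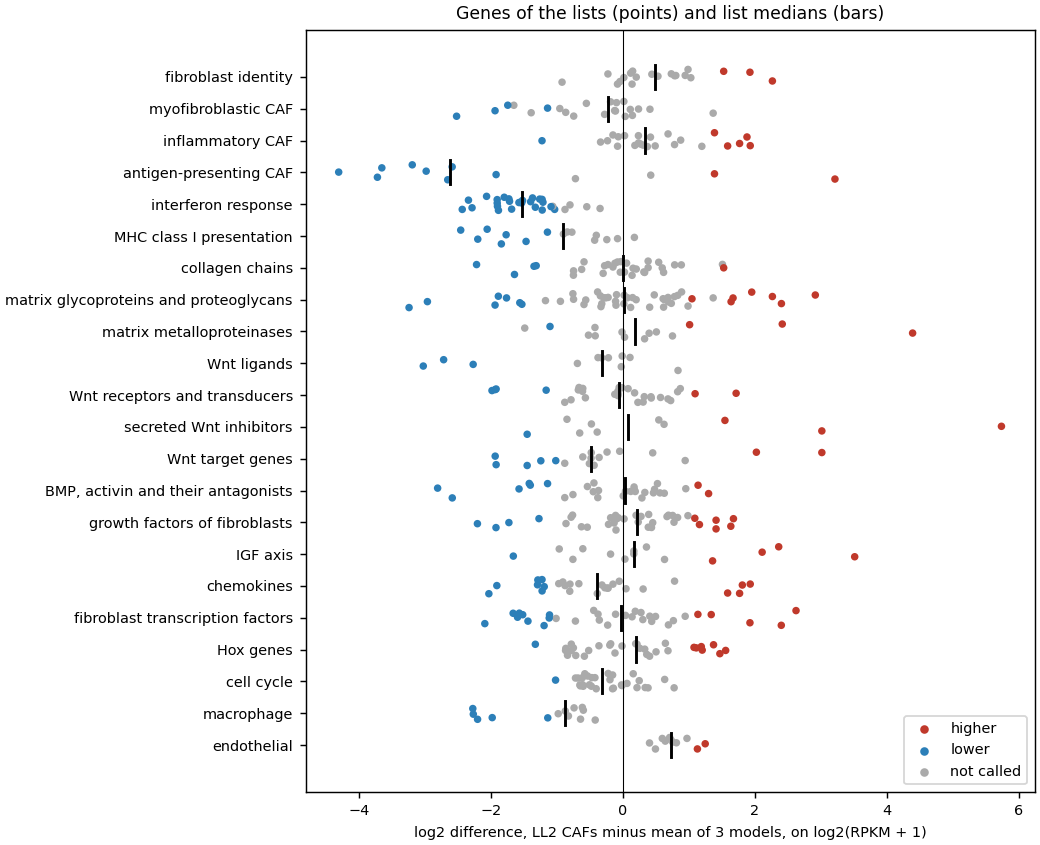
Log2 difference of LL2 CAFs against the mean of the 3 other models for every tested gene of 22 lists (1 point per gene, red for higher, blue for lower, gray for not called), with a black bar at the list median. The interferon list lies wholly left of 0 (median -1.53), the antigen-presenting list has the lowest median (-2.62), and matrix, growth factor and transcription factor lists spread to both sides.

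Genes typical of LL2 tumors were found in the sorted cells. In whole tumors, which hold cancer cells, CAFs and leukocytes together, 74 genes were restricted to LL2, with a mean of at least 10 CPM, a fitted log2 fold change of at least 3 over the mean of the other 4 models, and all 3 tumors above the other 12. Of the 70 that were tested in CAFs, 64 were higher in LL2 CAFs, where 3.89% of all genes were higher. Their median level was 11.7 and 13.5 RPKM in LL2 CAFs and 0.80 to 2.31 RPKM in the 6 others. Genes chosen in the same way for the other models were highest in the CAFs of their own model. The 133 genes restricted to EO771 tumors had medians of 10.2 and 9.79 RPKM in EO771 CAFs and 0.70 and 0.76 in LL2 CAFs, the 331 genes of Pan02 tumors 13.0 and 11.1 RPKM in Pan02 CAFs and 1.61 and 1.44 in LL2 CAFs, and the 102 genes of MC38 tumors 5.24 and 6.19 RPKM in MC38 CAFs and 0.67 and 0.50 in LL2 CAFs. Of the 529 genes higher in LL2 CAFs, 64 (12.1%) were restricted to LL2 tumors, and of the 12 leading ones 7 were, *Dkk2* and *Itgb7* among them. *Vcan*, *Hic1*, *Osr2*, *Il1r1*, *Areg*, *Vegfd*, *Ptges* and *Apcdd1* were in this set as well. Lower in LL2 CAFs were 55 of 131 tested genes restricted to EO771 tumors, 110 of 321 for Pan02 and 36 of 94 for MC38. Over all genes 5.13% were lower. Of 170 tested genes restricted to tumors of B16, whose CAFs were not analysed here, 22 were higher and 18 lower in LL2 CAFs. *Lgals7*, *Wfdc2* and *Fam83a* belong to the EO771 set, and *Syt8* and *Msln* to the Pan02 set. Among epithelial genes, *Krt18* had 97.2 and 101 RPKM in LL2 CAFs, 0.729 and 1.4 in EO771, 349 and 483 in Pan02, and 0.979 and 0.116 in MC38 (log2 difference 3.22, standard error 0.24, adjusted p = 0.00013), *Krt19* 15.9 and 15.5 RPKM in LL2 CAFs, 0.768 and 3.18 in EO771, 82.4 and 81.4 in Pan02, and 2.16 and 0.829 in MC38 (log2 difference 1.03, adjusted p = 0.045) and *Epcam* 2.46 and 1.98 RPKM in LL2 CAFs, 0.188 and 0.438 in EO771, 2.08 and 0.764 in Pan02, and 0.203 and 0.342 in MC38 (log2 difference 1.03, adjusted p = 0.01). LL2 CAFs stood above EO771 and MC38 CAFs for all 3, and below Pan02 CAFs for the keratins. The whole epithelial list ran otherwise against EO771. It summed to 213 and 216 RPKM in LL2 CAFs, 501 and 509 in EO771, 900 and 1177 in Pan02, and 6.32 and 4.22 in MC38. *Cdh1*, E-cadherin, was at 0.621 and 0.407 RPKM in LL2 CAFs against 0.111 to 14.1 in the 6 others. The part of epithelial or cancer cells in these values was not tested. *Xist*, the RNA that coats the inactive X chromosome, had 12.5 and 16.9 RPKM in LL2 CAFs, 3.03 and 2.46 in EO771, 0.944 and 0.671 in Pan02, and 5.5 and 1.81 in MC38 (log2 difference 2.35, standard error 0.3, adjusted p = 0.0012), in cells of female hosts, and *Tsix*, which overlaps it on the other strand, had 3.09 and 2.69 RPKM in LL2 CAFs against 0.078 to 1.03 in the 6 others. Without strand information the reads of this pair cannot be told apart. All 4 Y-linked genes listed were at 0 in both LL2 libraries. Among 24 cancer-germline genes tested, 4 were higher, all of the Rhox family, and 2 lower, *Tex13b* and *Xlr3a*. *Rhox5* had 235 and 290.3 RPKM in LL2 CAFs, 314 and 373 in EO771, 12.3 and 8.39 in Pan02, and 267 and 266 in MC38, and without Pan02 in the reference its difference was -0.21, adjusted p = 0.39. For *Tex13b* the difference without MC38 was 0.01, adjusted p = 0.97. From which cells these transcripts came was not tested. Leaving out 1 library took away the call of *Epcam* (LL2 1, LL2 2, up to 0.11) and *Krt19* (Pan02 1, Pan02 2, LL2 1, LL2 2, up to 0.21).

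**Figure D4:**
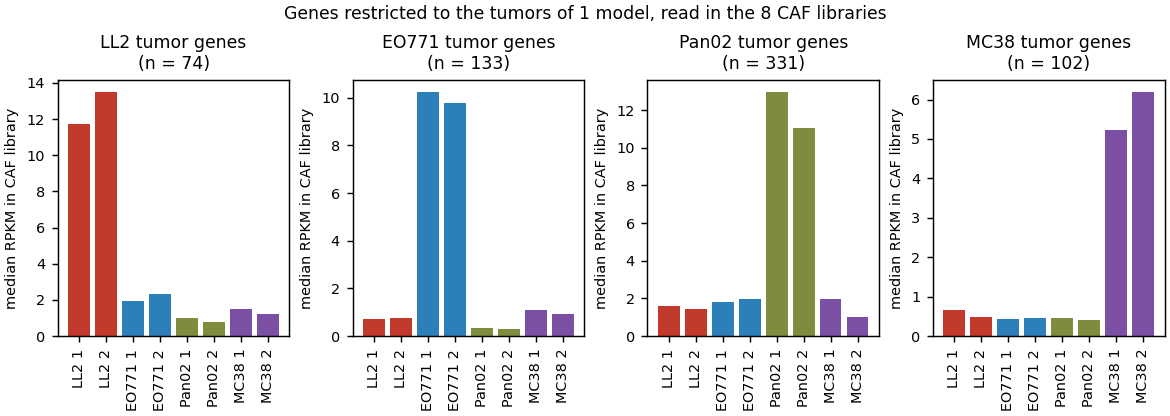
Median RPKM in each of the 8 CAF libraries of the genes restricted to whole tumors of 1 model, 1 panel per model with its number of genes, bars from 0 and a separate axis in each panel. In each panel the bars of the CAFs of that model are the highest, in the LL2 panel 11.7 and 13.5 RPKM against at most 2.31.

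Whole tumors gave the same comparison in other libraries, in CPM, counts scaled to the total of a library, normalized apart from the CAF values. Of 15722 genes tested with edgeR, 1046 (6.65%) were higher and 1400 (8.90%) lower in LL2 tumors than in the mean of EO771, Pan02 and MC38 tumors. Of the 513 genes higher in LL2 CAFs that were tested in tumors, 393 (76.6%) were higher in LL2 tumors too, where 6.45% of genes tested in both were higher. These are 46.1% of the 852 genes higher in tumors and tested in both. Of 686 lower genes, 402 (58.6%) were lower in tumors and 3 higher (background 8.42%), which is 36.2% of the 1112 genes lower in tumors. Across the 13208 genes tested in both, differences correlated with r = 0.69, where genes are not independent replicates and both tables hold tumors of the same 4 models. *Dkk2* had 523, 333 and 568 CPM in the LL2 tumors, 2.06, 3.22 and 5.14 in EO771, 3.37, 6.0 and 6.06 in Pan02, and 3.37, 0.844 and 4.86 in MC38 (log2 fold change 7.0, adjusted p = 9.7e-09), and *Itgb7* had 443, 451 and 499.7 CPM in the LL2 tumors, 19.9, 12.6 and 14.2 in EO771, 68.7, 113 and 74.3 in Pan02, and 55.5, 32.8 and 64.4 in MC38 (log2 fold change 3.51, adjusted p = 4.1e-08). The LL2 tumors lay above the 9 others for both genes. *Mmp12*, in contrast, had 105, 22.7 and 26.8 CPM in the LL2 tumors, 203, 185 and 158 in EO771, 39.6, 29.1 and 282 in Pan02, and 77.9, 13.2 and 27 in MC38 (log2 fold change -0.88, adjusted p = 0.36). The LL2 tumors overlapped the others, and no difference was called. Interferon genes were not called in tumors, and this rested on 1 library. Of 30 tested in tumors by edgeR, 0 were higher and 0 lower, with a median log2 fold change of -0.45 and a negative value for 25. At an unadjusted p under 0.05 there were 1 higher and 2 lower genes, and DESeq2 called 1 lower. Without LL2 tumor 3, 22 were lower (median -1.43), and without any other single tumor at most 1 gene was called. *Isg15* had 11, 25.8 and 62.3 CPM in the LL2 tumors, 26.2, 22.9 and 20.6 in EO771, 12.6, 27.4 and 17.5 in Pan02, and 148, 319 and 190.2 in MC38 (log2 fold change -0.48, adjusted p = 0.37), and LL2 tumor 3 had the highest value of the 3. Without it the log2 fold change was -1.31, adjusted p = 0.019. For *Cd74* the log2 fold change was -0.79, adjusted p = 0.26, with LL2 tumor 3 left out -1.97, adjusted p = 0.012. Of 15 MHC class I genes, 4 were lower in LL2 tumors, among them *Psmb9* (-1.18, adjusted p = 0.033). None was called without LL2 tumor 1 or without LL2 tumor 2, 2 were lower without EO771 tumor 2, and 9 without LL2 tumor 3. Lists of CAF genes were read in tumors as well. Of 22 markers of myofibroblastic CAFs, 14 were lower and 0 higher in LL2 tumors (median -1.5), among them *Ctgf* (-3.23, adjusted p = 0.00038) and *Postn* (-3.37, adjusted p = 5.7e-05). Of 39 collagen chains, 18 were lower and 2 higher (median -1.1), *Col1a1* being at -1.81, adjusted p = 0.018, which was no longer called when the second or the third LL2 tumor was left out (-1.65 and -1.54). Markers of inflammatory CAFs ran the other way, with 10 of 24 higher and 0 lower (median 0.87), among them *Cxcl1* (5.31, adjusted p = 1.5e-05), *Ccl2* (2.13, adjusted p = 0.00021) and *Il1r1* (2.35, adjusted p = 6.8e-07). Over all genes the median was 0.01. Of 13 Wnt ligands tested in tumors, 5 were lower and 0 higher (median -0.79), with *Wnt10a* at -4.43, adjusted p = 8.4e-07, *Wnt6* at -4.52, adjusted p = 1e-07 and *Wnt10b* at -3.76, adjusted p = 8.5e-08. *Pdgfa* was lower in LL2 tumors as in CAFs (-1.54, adjusted p = 5.9e-07), and *Apcdd1* was higher in both (3.75, adjusted p = 4.2e-08). Whether a gene differed more in CAFs than in tumors was not tested, since the tables were normalized separately.

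**Figure D5:**
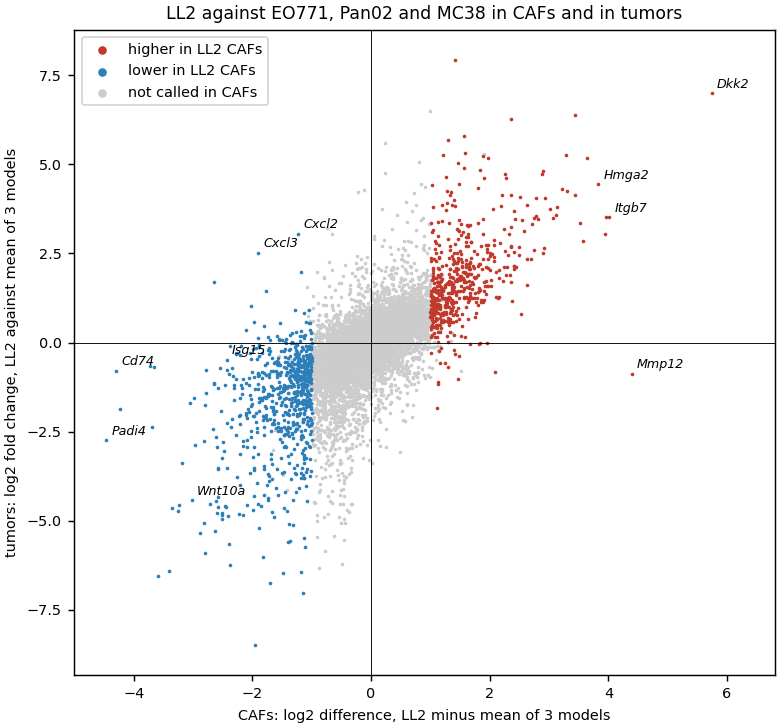
Log2 difference in CAFs (x axis) and log2 fold change in whole tumors (y axis) of LL2 against EO771, Pan02 and MC38, 1 point for each of 13208 genes tested in both, colored by the CAF call, with 10 genes named. Most red points lie in the upper right and most blue points in the lower left (393 and 402 genes called the same way in both), Mmp12 lies far right and below 0 (-0.88 in tumors), and Cxcl2 and Cxcl3 lie in the upper left.

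Within the pair of LL2 libraries, 76 of the tested genes differed 2-fold or more on the log2(RPKM + 1) scale, against 59 in EO771, 308 in Pan02 and 827 in MC38. The MC38 pair, whose library 2 was also the shallowest, spread most. Immediate early and heat shock genes, which respond to the handling of cells, were among the genes that differed. *Myc* (given above) and *Dnajb1* (407 and 195 RPKM) were higher in library 1, as was *Hspa1a* by less than 2-fold (174 and 90.7 RPKM). The list of these genes summed to 4255 and 2422 RPKM in LL2 CAFs and 1987 to 8748 in the 6 others. All 3 were called higher in LL2 CAFs, but without MC38 in the reference *Hspa1a* had -0.15, adjusted p = 0.69. *Dusp1* (125 and 72.1 RPKM in LL2 CAFs against 119.6 to 716 in the 6 others) and *Btg2* of the same list were lower. Calls lost on the removal of 1 library were those of *Btg2* (LL2 2, 0.14), *Dnajb1* (LL2 1, 0.13), *Dusp1* (LL2 2, 0.094) and *Hspa1a* (LL2 1, 0.062).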

How the data were processed

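RNA-seq tables of sorted CAFs and of whole tumors were used as deposited. The CAF table gives RPKM for RefSeq transcripts, which the authors made with STAR 2.5.0c on mm10 and HOMER, which counted exon reads of both strands. The tumor table deposited by the authors is titled as normalized, but its values lie in steps of 0.5 in every library and totals differ, so they were treated like expected counts without scaling, which the sources used here do not state, and rounded up. DESeq2 is among the tools in the submitters' processing notes. Across both tables, 5 columns of other samples were not used.

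The transcript with the largest mean RPKM stood for a gene. Genes that reached 1 RPKM in 2 or more of 8 libraries were tested with limma 3.58.1 (variance trend, 4 residual degrees of freedom) on log2(RPKM + 1), LL2 against the mean of 3 model means. Tumor counts were tested with edgeR 4.0.16 (quasi-likelihood, TMM, filterByExpr) over 15 tumors, with total counts of 10035173 to 21946486. All adjusted p-values are Benjamini-Hochberg values over all genes of a fit. An exact permutation test of 2 libraries against 6 could not go below p = 0.036.

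RPKM multiplied by transcript length fell on whole multiples of 1 step in 100% of values (tolerance 0.15 step), so that the relative depth of the CAF libraries is known, from 0.409 to 1.01 of that of LL2 library 1. Whether a step is 1 read or 0.5 read could not be told. On simulated data limma recovered 180 of 200 changed genes with 2 false calls in the CAF design, and edgeR 200 of 200 with 1 false call in the tumor design, both for 4-fold changes. All genes were simulated with the same dispersion and without differences among the other models, and only well-covered genes were changed. The real libraries spread unequally, so these counts check the code and give no error rate for the data.

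Named genes were the 12 largest differences in each direction with at least 10 RPKM and no overlap between groups, *Dkk2*, *Mmp12* and *Itgb7*, the genes most correlated with these, and members of gene lists. LL2 CAFs, as the group to describe, and the gene lists were chosen with earlier results of these data known. Counting of near-identical genes could not be checked. CAFs of B16 tumors were not analysed here, and 1 gene of the interferon list, which its counts include, is not reported here. Alternatives covered pseudocounts, filters, scaling, the reference group, single libraries and the tools (limma, edgeR, DESeq2 1.42.0).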

Additional observations from a re-analysis of the deposited data

Results flagged for a closer look

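Of the genes called in both tables, 3 went in opposite directions, lower in LL2 CAFs and higher in LL2 tumors, with every LL2 library on its side of the mean of the other models. *Cxcl2* had 10.4 and 3.42 RPKM in LL2 CAFs against 0.562 to 151 in the 6 other CAF libraries (log2 difference -1.22, adjusted p = 0.049), and 16.8, 89.2 and 23 CPM in LL2 tumors against 0.849 to 21.6 in the 9 other tumors (log2 fold change 3.05, adjusted p = 0.0013). *Cxcl3* had 0.786 and 0.411 RPKM in LL2 CAFs against 0.374 to 36 in the 6 other CAF libraries (log2 difference -1.91, adjusted p = 0.0012), and 14.8, 42.1 and 9.45 CPM in LL2 tumors against 0.0849 to 43.8 in the 9 other tumors (log2 fold change 2.53, adjusted p = 0.0028). *Cbr2* had 0.459 and 0.346 RPKM in LL2 CAFs against 1.12 to 57.5 in the 6 other CAF libraries (log2 difference -2.64, adjusted p = 0.00013), and 84, 129.8 and 101 CPM in LL2 tumors against 10.6 to 175 in the 9 other tumors (log2 fold change 1.7, adjusted p = 0.0033). *Cxcl2* and *Cxcl3* encode chemokines that attract neutrophils, and *Cbr2* encodes a carbonyl reductase. *Cbr2* was named after its values were seen. The CAF call of *Cxcl2* did not stand without EO771 1, EO771 2, Pan02 1, MC38 2 or LL2 2 (adjusted p up to 0.41), and without Pan02 in the reference its direction turned (0.1, adjusted p = 0.87). For *Cxcl3* the CAF call was lost without Pan02 in the reference (-0.65, adjusted p = 0.083) and the tumor call without LL2 tumor 2 (1.66, adjusted p = 0.051). The difference between CAFs and tumors was not tested for any of the 3.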

How the results depend on the processing

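The number of genes called in LL2 CAFs depended on the settings more than their direction did. Against 529 higher and 698 lower genes, there were 41 and 12 with the 6 other libraries as 1 group, 198 and 242 with a pseudocount of 5, 992 and 1057 with edgeR on recovered reads (added after the data were seen), and 1996 and 2485 at an adjusted p under 0.05 without the fold threshold. With a pseudocount of 0.1, 1141 were lower. Leaving out 1 library gave 363 to 627 higher and 568 to 776 lower genes. In tumors, an adjusted p under 0.05 alone gave 3361 higher and 2784 lower genes, and leaving out 1 tumor 983 to 1162 and 1125 to 1574. With a pseudocount of 0.1 the distances were 46.6 between the LL2 libraries and 129 to the nearest other library.

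Signs turned only with a model taken out of the reference. Without MC38 they were 0.094 for *Batf3*, -0.15 for *Hspa1a* and 0.0095 for *Tex13b*, and without Pan02 0.34 for *Cdh1*, 0.10 for *Cxcl2*, 0.72 for *Notum*, -0.21 for *Rhox5* and -0.27 for *Saa3*, as follows from the high or low level of that model. Of 180 named genes with an adjusted p under 0.05, 165 lost it with the 6 others as 1 group, 50 without LL2 library 1 and 55 without LL2 library 2.

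Replicate numbers were not taken to pair the CAF libraries. Deviations of same-numbered libraries correlated between -0.14 and 0.28, the highest for Pan02 with LL2. Whether same-numbered libraries shared a sorting round was not tested. A fit that held the replicate number as a block gave 532 higher and 704 lower genes, of which 526 and 696 were among those called without it. Depth bears mostly on MC38 library 2, which held 0.409 of the reads of LL2 library 1.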

Other observations

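Imprinted genes, which are expressed from the allele of 1 parent and mostly in fetal tissue, appeared among the leading genes of LL2 CAFs, and a list of them was written after this had been seen, so that it carries no test. Of 24 such genes tested, 7 were higher and 2 lower in LL2 CAFs (median log2 difference 0.69, against -0.03 over all genes), where 3.89% of all genes were higher and 5.13% lower. Beside *H19*, *Peg10*, *Slc38a4* and *Igf2r* the higher ones were *Peg3*, a zinc finger protein, with 8.05 and 8.36 RPKM in LL2 CAFs, 0.493 and 0.309 in EO771, 0.234 and 0.123 in Pan02, and 0.675 and 0.294 in MC38 (2.78, adjusted p = 3.7e-05), *Snrpn* (1.15) and *Sgce* (1.05). *Sgce* had 16.3 and 20.2 RPKM in LL2 CAFs, below the 23.7 of MC38 library 1 (adjusted p = 0.033). *Snrpn* had 3.6 and 3.3 RPKM in LL2 CAFs against 3.2 and 2.1 in MC38. The lower ones were *Phlda2*, with 0.512 and 0.388 RPKM in LL2 CAFs, 39.4 and 44 in EO771, 6.41 and 3.7 in Pan02, and 0.619 and 0.81 in MC38 (-2.38, adjusted p = 0.00013), and *Slc22a18* (-2.1). *Igf2*, the neighbor of *H19*, had 4.28 and 5.51 RPKM in LL2 CAFs, 0.189 and 0.146 in EO771, 356 and 415 in Pan02, and 4.54 and 0.985 in MC38 and was not called (-0.96, adjusted p = 0.063). *Meg3* (70.9 and 69.2 RPKM in LL2 CAFs) and *Gnas* (638 and 719 RPKM) were not called either. In whole tumors, 8 of the 24 genes were higher and 5 lower in LL2, where 6.65% of all genes were higher and 8.90% lower.

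Markers of other cells ran both ways in LL2 CAFs. The list median was 0.73 for endothelial and 0.74 for pericyte genes, and -0.71 for leukocyte and -0.87 for macrophage genes. The 14 T and NK cell genes were under 1 RPKM in both LL2 libraries, and their sum was 1.97 and 0.595 RPKM in LL2 CAFs and 0.926 to 2.92 in the 6 others. Neutrophil genes summed to 6.81 and 5.06 RPKM in LL2 CAFs and 2.42 to 25.2 in the 6 others, B cell genes to 1.81 and 0.603 RPKM in LL2 CAFs and 0.947 to 6.39 in the 6 others, mast cell and basophil genes to 1.46 and 1.36 RPKM in LL2 CAFs and 0.063 to 5.77 in the 6 others, dendritic cell genes to 7.06 and 7.14 RPKM in LL2 CAFs and 2.08 to 14.3 in the 6 others, skeletal muscle genes to 13.3 and 12.7 RPKM in LL2 CAFs and 16 to 42.8 in the 6 others, adipocyte genes to 27 and 32.6 RPKM in LL2 CAFs and 16.4 to 106 in the 6 others, Schwann cell and melanocyte genes to 7.0 and 7.0 RPKM in LL2 CAFs and 3.3 to 5.42 in the 6 others, and red blood cell genes to 0.906 and 1.28 RPKM in LL2 CAFs and 0.219 to 14.1 in the 6 others. The dendritic cell gene *Clec9a* was higher in LL2 CAFs (2.22 and 2.52 RPKM in LL2 CAFs against 0 to 0.477 in the 6 others, log2 difference 1.61, adjusted p = 0.00028), as were the endothelial genes *Pecam1* (1.25) and *Cldn5* (1.13) and the myelin gene *Mbp* (4.86 and 5.22 RPKM in LL2 CAFs against 0.09 to 2.96 in the 6 others). *Rgs5*, a pericyte gene, was not called (34.8 and 29.9 RPKM in LL2 CAFs against 4.33 to 96.6 in the 6 others, log2 difference 0.76, adjusted p = 0.21). *Cd79a* of B cells (1.02 and 0.415 RPKM in LL2 CAFs against 0.551 to 5.56 in the 6 others, log2 difference -1.13, adjusted p = 0.0023) and *Tnni2* of muscle (1.44 and 2.36 RPKM in LL2 CAFs against 0.622 to 18.1 in the 6 others, log2 difference -1.18, adjusted p = 0.0046) were lower. Without 1 library no call was made for *Cldn5* (LL2 2, 0.071) and *Tnni2* (LL2 1, 0.068).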
